A study of Mus musculus with 4 samples.

Results

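The genes described here are 10 writers and erasers of repressive chromatin marks: the Polycomb genes Ezh1, Ezh2, Eed, Suz12 and Bmi1, and the DNA methylation genes Dnmt1, Dnmt3a, Dnmt3b, Tet1 and Uhrf1. They were chosen by name, as core subunits and enzymes of both systems, and all 10 were found among the 54532 gene IDs measured. RNA sequencing profiled the fetal pancreas of wild-type C57BL/6 mice, described by the submitters as pancreatic epithelium, at embryonic days E11.5, then E13.5, then E15.5 and last E18.5. Each stage was 1 sample of total RNA from at least 20000 cells, and no group carried an engineered allele or a treatment. The way the epithelium was separated is not stated in the labels. The deposited value of a sample was a mean FPKM, a count of fragments set relative to transcript length and library size. Of the values attempted, 96.3% to 96.5% could be written as the mean of 2 libraries of whole reads, and each sample was taken as 2 libraries on that ground.

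Polycomb repressive complex 2 (PRC2) writes the H3K27 methylation mark on histone H3. Its catalytic subunit is Ezh2 or the related Ezh1, held in an active complex by Eed and Suz12, and Polycomb repressive complex 1 (PRC1), of which Bmi1 is a subunit, ubiquitinates histone H2A. DNA methylation is placed on new sites by Dnmt3a and Dnmt3b, copied after replication by Dnmt1 with its cofactor Uhrf1, and oxidized on the way to removal by Tet1. In the pancreas, Polycomb and DNA methylation are known for holding genes of other lineages silent while progenitors become acinar, ductal and endocrine cells, and Ezh2 is known for restraining endocrine commitment.

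The promoters of the members were searched on both strands for 3 kinds of word known from genes of the cell cycle, which the choice of genes did not use. The E2F words TTTCCCGC, TTTCGCGC, TTTGCCGC and TTTGGCGC are forms of the site bound by E2F factors, the regulators of genes of DNA replication. The other kinds were the CHR words TTTGAA and TTCGAA, known from genes of mitosis, and CCAAT, the word of the NF-Y factor. The windows with an E2F word are shown here because their genes had the steepest falls at E18.5 against E15.5, a choice made with the values known. The windows ran from 250 bases before to 50 bases after each RefSeq start (build GRCm38.p6), and 15 windows belonged to the 10 members. An E2F word stood in 4 of these windows, of 4 members, and in 744 of all 32851 windows (2.26%). The windows were chr6:47594981-47595280 on the minus strand for Ezh2, chr11:79992856-79993155 on the plus strand for Suz12, chr9:20952574-20952873 on the minus strand for Dnmt1 and chr17:56304063-56304362 on the plus strand for Uhrf1. Each is printed 5′ to 3′ on its gene's strand, with E2F words in capitals, and Ezh1 (chr11:101226414-101226713, minus strand), the other catalytic subunit of PRC2, follows as a window without one.
Ezh2: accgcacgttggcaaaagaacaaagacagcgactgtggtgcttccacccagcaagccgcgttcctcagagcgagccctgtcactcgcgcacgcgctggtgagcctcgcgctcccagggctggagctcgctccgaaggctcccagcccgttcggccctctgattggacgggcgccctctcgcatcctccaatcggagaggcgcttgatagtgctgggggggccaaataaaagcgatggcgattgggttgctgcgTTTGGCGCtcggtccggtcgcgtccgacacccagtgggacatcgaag
Suz12: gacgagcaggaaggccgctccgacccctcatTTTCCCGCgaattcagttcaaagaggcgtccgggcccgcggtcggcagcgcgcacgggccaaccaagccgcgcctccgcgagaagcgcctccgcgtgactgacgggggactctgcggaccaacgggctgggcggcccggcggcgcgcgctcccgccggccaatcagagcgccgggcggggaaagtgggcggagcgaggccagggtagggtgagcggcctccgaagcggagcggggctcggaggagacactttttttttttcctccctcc
Dnmt1: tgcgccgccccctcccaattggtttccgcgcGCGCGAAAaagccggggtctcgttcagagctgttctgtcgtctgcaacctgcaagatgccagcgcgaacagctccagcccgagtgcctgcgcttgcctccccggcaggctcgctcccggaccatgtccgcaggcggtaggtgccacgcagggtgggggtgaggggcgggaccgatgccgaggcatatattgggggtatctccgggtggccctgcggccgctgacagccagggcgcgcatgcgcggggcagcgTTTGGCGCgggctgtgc
Uhrf1: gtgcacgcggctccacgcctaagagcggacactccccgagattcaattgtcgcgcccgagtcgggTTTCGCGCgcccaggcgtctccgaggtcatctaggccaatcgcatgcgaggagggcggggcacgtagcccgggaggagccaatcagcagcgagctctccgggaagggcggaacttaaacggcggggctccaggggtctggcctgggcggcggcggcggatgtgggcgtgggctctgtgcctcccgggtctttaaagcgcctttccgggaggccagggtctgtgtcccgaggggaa
Ezh1: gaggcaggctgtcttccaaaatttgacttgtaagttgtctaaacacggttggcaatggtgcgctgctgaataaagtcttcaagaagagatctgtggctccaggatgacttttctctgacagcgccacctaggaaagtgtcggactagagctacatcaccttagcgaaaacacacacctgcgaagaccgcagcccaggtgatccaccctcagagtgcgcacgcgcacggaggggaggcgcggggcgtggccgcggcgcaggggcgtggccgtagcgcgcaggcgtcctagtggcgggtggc
Counted from the start, the word of Ezh2 began at base 4, that of Suz12 219 bases before it and that of Uhrf1 185 bases before it. Dnmt1 had a word on the other strand 219 bases before the start, printed as GCGCGAAA, and another at base 34. These 4 windows held 31, 41, 33 and 33 CG dinucleotides for Ezh2, Suz12, Dnmt1 and Uhrf1, and that of Ezh1 held 23, against a median of 7 over all windows. Among the other windows without an E2F word, those of Dnmt3a held 46, 47 and 18 and that of Dnmt3b 30. The rest held 2 to 23. Each E2F word contains a CG, so the 2.26% of all windows is not a like background for windows rich in CG. CCAAT stood on either strand 3 times in the windows of Ezh2 and Dnmt1, 2 times in that of Uhrf1 and 1 time in that of Suz12, and in 37.4% of all windows. Without an E2F word, another window of Dnmt1 held CCAAT 5 times, another of Uhrf1 3 times and that of Eed 1 time. The windows of Ezh1, Bmi1, Dnmt3a, Dnmt3b and Tet1 did not hold it. No E2F word stood in the windows of Eed, Bmi1, Dnmt3a, Dnmt3b and Tet1, nor in the other windows listed for Dnmt1 and Uhrf1. CHR words did not follow the same genes. The window of Eed held 2, and a window of Suz12, of Dnmt1 (another window than the one printed) and of Dnmt3b held 1 each. None stood in a window of Ezh2 or Uhrf1, and 19.2% of all windows held a CHR word. A word is a match of letters and not a measured binding site.

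All levels below are scaled FPKM, in which each sample was divided by a factor from the genes expressed at every stage. Whole reads were recovered for all 10 members in all 8 libraries, and the estimated reads of a library lay between 13680000 and 17960000. The fewest reads were 95 for Dnmt3b and the most 4514 for Ezh2. The libraries of a stage differed at most 1.199-fold for any member (Bmi1 at E15.5). Later and earlier stages were compared with limma on log2(scaled FPKM + 1) over 13090 genes, a scale that understates the change of low genes. A gene rose or fell where the Benjamini-Hochberg adjusted p was under 0.05. A rule of size with no test was applied beside it: at least 2-fold on the same scale, with the larger value at 5 FPKM or more, among 14841 genes. No label tells whether the 2 libraries of a stage came from different embryos, so limma's p-values measure only the spread between libraries, which may be technical. Comparisons that share a stage share its libraries.

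The samples differed in their cells as well as in age. Markers of epithelium (7 genes) were present at 1 FPKM or more at every stage, with summed levels of 1186, 3026, 3958 and 4650 FPKM from E11.5 to E18.5. The E11.5 sample also carried markers of other tissues. Erythroid markers (7 genes) summed to 9519 FPKM at E11.5 and 169 to 308 FPKM later, where Hbb-bh1 was at 0 at E15.5 and Hbb-y, Hbb-bh1 and Hba-x at E18.5. Neuronal markers (6 genes) summed to 1237 and 11.1 to 51.4 FPKM, and mesenchymal markers (9 genes, all at 1 FPKM or more at E11.5) to 117 and 4.41 to 46.7 FPKM. Leukocyte markers (6 genes) lay between 16.4 and 180 FPKM, and none of 6 endothelial markers reached 1 FPKM at any stage. Acinar markers (8 genes) summed to 5.53, 4600, 105530 and 49024 FPKM, and endocrine markers (8 genes) to 258, 3602, 2932 and 30121 FPKM, with Ins2 at 0 at E11.5. The part of these cell types in the differences below was not tested. In such bulk samples, fewer cells that express a gene and less RNA of it per cell cannot be told apart.

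Ezh2, the main catalytic subunit of PRC2 in dividing cells, was the most abundant member at E11.5 and had fallen by more than any other by E18.5. Its libraries stood at 36.9 and 36.9 FPKM at E11.5, with 16.5 and 18.6 at E13.5, with 18.1 and 15.9 at E15.5 and with 7.87 and 8.15 at E18.5. Both E11.5 libraries were above, and both E18.5 libraries below, every other library, while E13.5 and E15.5 overlapped. The level averaged 8.01 ± 0.19 FPKM at E18.5 and 36.9 ± 0.019 at E11.5 (SD, n = 2 libraries each), 4.61-fold lower at E18.5 (limma log2 difference -2.07, SE 0.07, adjusted p = 8.92e-07). The loss came in 2 steps. Ezh2 fell at E13.5 against E11.5 (log2 -1.03, adjusted p = 2.97e-05) and again at E18.5 against E15.5 (log2 -0.996, adjusted p = 4.53e-05). Between them, E15.5 against E13.5, the log2 difference was -0.04 with a 95% interval of -0.22 to 0.14, and limma did not call it (adjusted p = 0.659). The step at E13.5 is a comparison with the sample that carried the markers of other tissues, and the step at E18.5 is not. The latter step spans other differences in cells, with acinar markers at 105530 and 49024 FPKM and endocrine markers at 2932 and 30121 FPKM at E15.5 and E18.5. The part of the cells in either step was not tested.

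Ezh1, the alternative catalytic subunit, known from mouse tissues for persisting in cells that no longer divide, moved the other way at the end of the series. Its libraries stood at 1.98 and 1.68 FPKM at E11.5, with 1.47 and 1.73 at E13.5, with 1.26 and 1.39 at E15.5 and with 2.59 and 2.49 at E18.5, from 115 to 270 reads each. Both E18.5 libraries were above all 6 earlier ones. Ezh1 rose at E18.5 against E15.5 (log2 0.61, SE 0.08, adjusted p = 0.000747), and it was not called at E13.5 against E11.5 (log2 -0.12) or at E15.5 against E13.5 (log2 -0.16).

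The balance of the 2 catalytic subunits can be read within a library, where no scaling between stages enters. Ezh2 over Ezh1 in FPKM was 18.6 and 21.9 at E11.5, with 11.2 and 10.8 at E13.5, with 14.3 and 11.51 at E15.5 and with 3.05 and 3.27 at E18.5. The E18.5 libraries lay below the other 6, the E11.5 libraries above them, and both E15.5 libraries above both of E13.5 by a small margin. Ezh1 made up 24.1 ± 0.91% of the FPKM of both genes at E18.5, against 7.26 ± 1.03% at E15.5, 8.34 ± 0.23% at E13.5 and 4.73 ± 0.52% at E11.5 (SD, n = 2 libraries each).

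**Figure D1:**
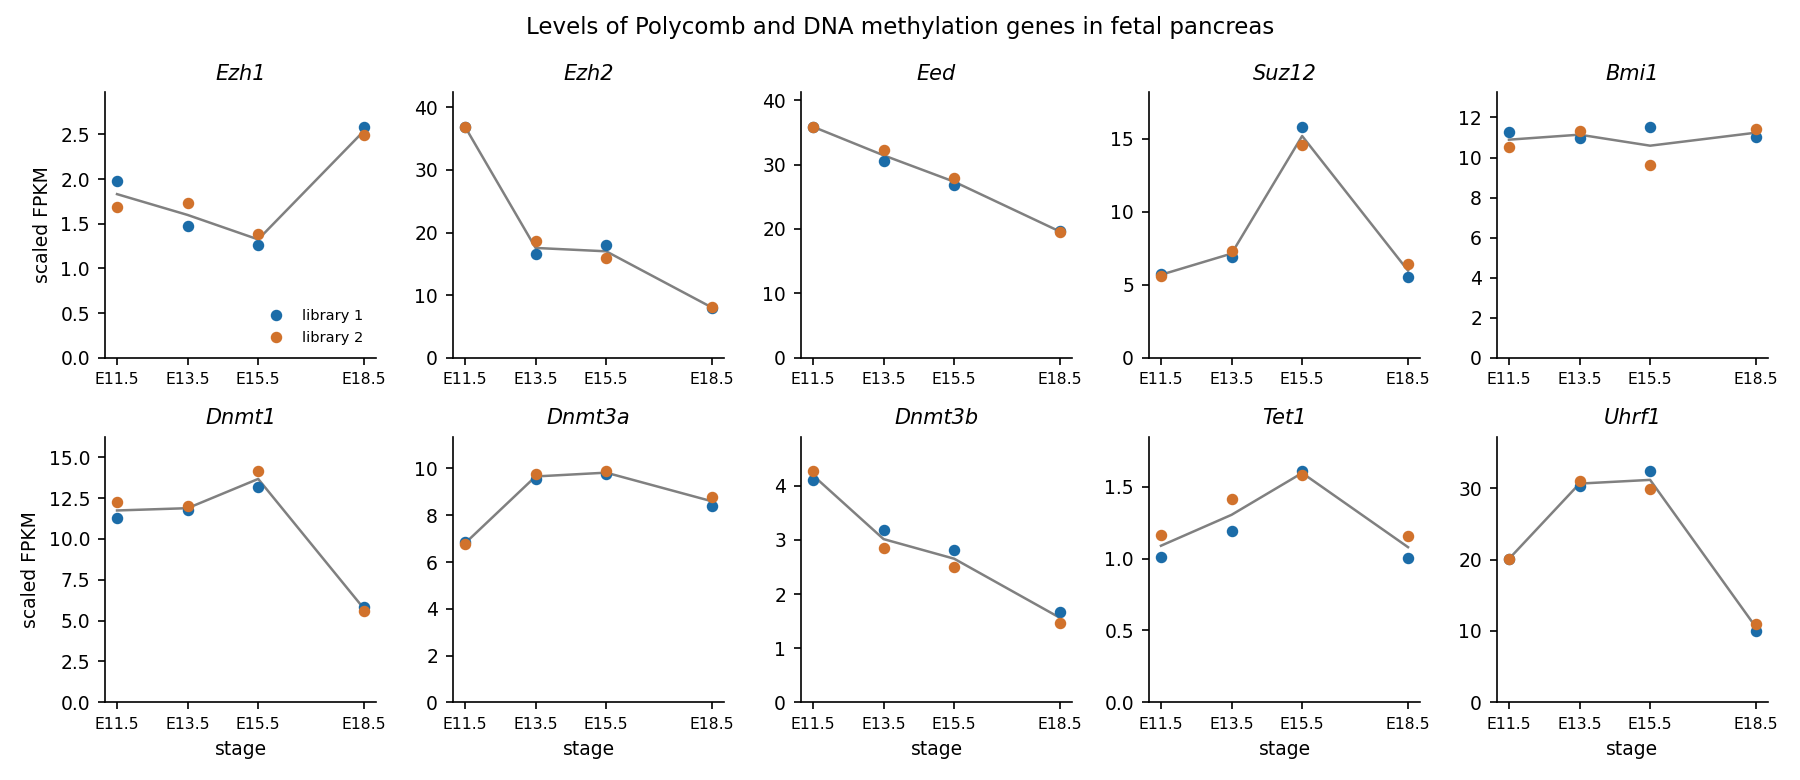
Level of each member in scaled FPKM (vertical axes, each starting at 0) at the 4 stages, with 1 point per library and a line through the stage means. Ezh2 was highest in both E11.5 libraries (36.9 FPKM each) and lowest at E18.5, Suz12 peaked at E15.5, Bmi1 stayed between 9.63 and 11.54 FPKM, and Ezh1 was highest at E18.5.

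Eed, the subunit that binds the trimethylated mark and stimulates the enzyme, declined at each step. Its libraries stood at 35.9 and 35.9 FPKM at E11.5, with 30.6 and 32.3 at E13.5, with 26.8 and 27.9 at E15.5 and with 19.7 and 19.5 at E18.5, so that no stage overlapped another. It fell at E13.5 against E11.5 (log2 -0.19, adjusted p = 0.00531), at E15.5 against E13.5 (log2 -0.20, adjusted p = 0.00602) and at E18.5 against E15.5 (log2 -0.46, adjusted p = 8.44e-05). The whole change, E18.5 against E11.5, was 1.83-fold (log2 -0.84, SE 0.04, adjusted p = 2.94e-06), and Eed was the most abundant member at E18.5. Reads of Eed and the antisense gene E230029C05Rik, which overlaps 6.82% of its exon bases, could not be told apart, since no source used here gives the strand setting of the counting.

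Suz12, the scaffold of PRC2, did not share that course. Its libraries stood at 5.76 and 5.62 FPKM at E11.5, with 6.93 and 7.35 at E13.5, with 15.8 and 14.6 at E15.5 and with 5.55 and 6.39 at E18.5. Both E15.5 libraries were above all others, and the E18.5 libraries lay on either side of those at E11.5. Suz12 rose at E15.5 against E13.5, with means of 15.2 and 7.14 FPKM (2.13-fold, log2 0.99, SE 0.07, adjusted p = 9.34e-05), just under the rule of size. It then fell at E18.5 against E15.5 (2.54-fold, log2 -1.22, adjusted p = 1.81e-05). E18.5 and E11.5 differed by a log2 of 0.06 (95% interval -0.12 to 0.23), which limma did not call. The small rise at E13.5 against E11.5 (log2 0.28, adjusted p = 0.0124) lost its call without E11.5 library 1 (adjusted p = 0.0509), E11.5 library 2 (0.0684) or E13.5 library 2 (0.0677), and with every library set to the same FPKM total (log2 0.17, adjusted p = 0.0738). The transcripts of the core subunits of PRC2 therefore did not keep 1 proportion over the stages. Eed over Suz12 averaged 6.31 ± 0.11, 4.40 ± 0.018, 1.80 ± 0.16 and 3.30 ± 0.36 from E11.5 to E18.5. Eed over Ezh2 averaged 0.973 ± 0.00087, 1.80 ± 0.083, 1.62 ± 0.19 and 2.45 ± 0.078 (SD, n = 2 libraries each), and its E13.5 and E15.5 libraries overlapped.

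**Figure D2:**
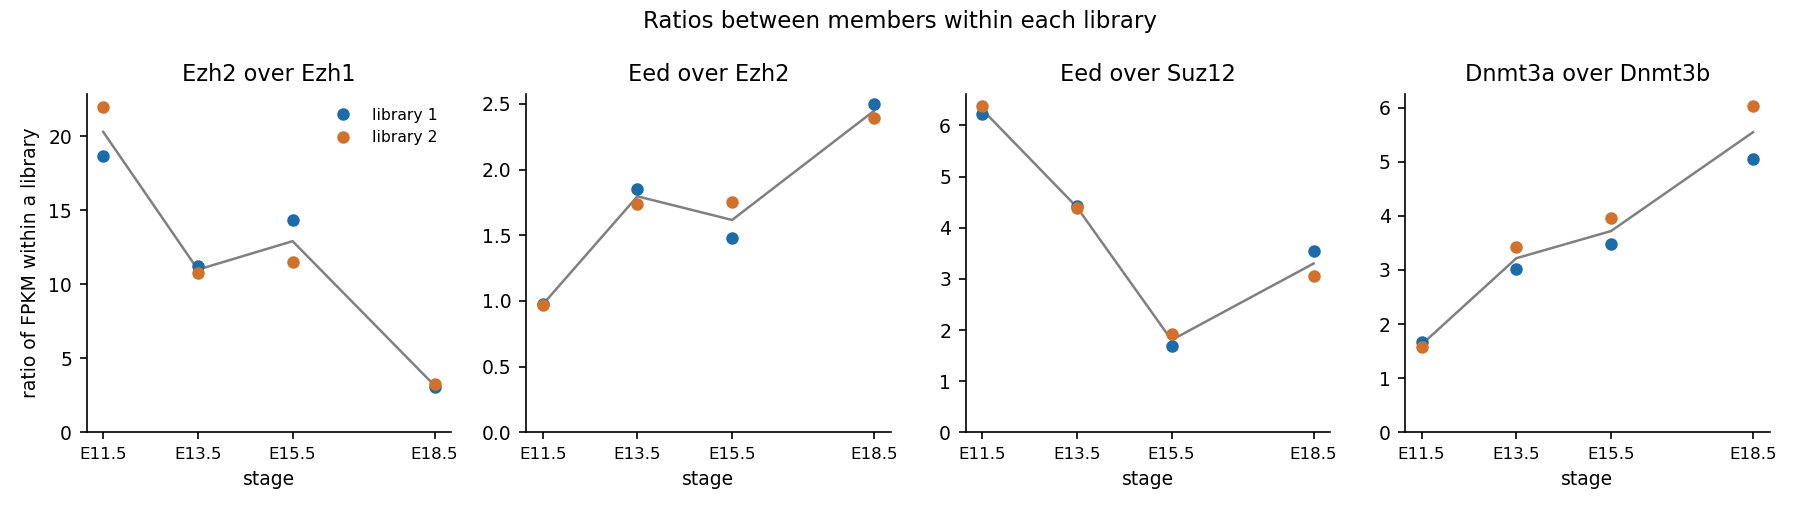
Ratio of FPKM between 2 members within each library (vertical axes start at 0), with 1 point per library and a line through the stage means, for Ezh2 over Ezh1, Eed over Ezh2, Eed over Suz12 and Dnmt3a over Dnmt3b. Ezh2 over Ezh1 was 3.05 and 3.27 at E18.5 and at least 10.8 in every earlier library, and Dnmt3a over Dnmt3b was highest in both E18.5 libraries (5.05 and 6.04).

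Bmi1, the Pcgf4 subunit of PRC1, known for repressing the Ink4a locus in stem and progenitor cells, differed least between stages. Its libraries stood at 11.3 and 10.5 FPKM at E11.5, with 10.96 and 11.3 at E13.5, with 11.54 and 9.63 at E15.5 and with 11.04 and 11.4 at E18.5. The libraries of every pair of stages compared overlapped, and limma called none of the 5 comparisons (adjusted p = 0.396 to 0.914). The 95% interval at E18.5 against E11.5 was -0.15 to 0.24, and at E18.5 against E15.5 it was -0.11 to 0.28. Without E15.5 library 1 it was called lower at E15.5 against E13.5 (log2 -0.19, adjusted p = 0.0462) and higher at E18.5 against E15.5 (log2 0.20, adjusted p = 0.0304). With every library set to the same FPKM total, where the median of all genes moved as well, Bmi1 was called lower at E15.5 against E13.5 (log2 -0.64), at E18.5 against E11.5 (-0.50) and at E18.5 against E13.5 (-0.40), and higher at E18.5 against E15.5 (0.24, adjusted p = 0.0349). Of the 50-base words of its transcripts, 16.7% are shared with other genes, foremost the pseudogene Gm5946, so part of its reads is uncertain.

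Dnmt1 and Uhrf1, the enzyme that copies methylation onto new DNA and the factor that brings it to hemimethylated sites, were both lowest at E18.5. The libraries of Dnmt1 stood at 11.3 and 12.2 FPKM at E11.5, with 11.8 and 12.01 at E13.5, with 13.2 and 14.1 at E15.5 and with 5.84 and 5.60 at E18.5. Those of Uhrf1 stood at 20.1 and 20.1, 30.3 and 31.0, 32.4 and 29.9, and 9.95 and 11.04 FPKM at the same stages. For both genes the E18.5 libraries lay below all 6 earlier ones. Uhrf1 fell 2.97-fold at E18.5 against E15.5 (means 10.5 ± 0.77 and 31.2 ± 1.71 FPKM, log2 -1.48, SE 0.06, adjusted p = 3.91e-06), and Dnmt1 fell 2.39-fold (5.72 ± 0.17 and 13.7 ± 0.66 FPKM, log2 -1.13, SE 0.05, adjusted p = 8.44e-06; SD, n = 2 libraries each). Before that their courses differed. Uhrf1 rose at E13.5 against E11.5 (log2 0.59, adjusted p = 0.000143), where Dnmt1 was not called (log2 0.02, 95% interval -0.12 to 0.15). Dnmt1 rose at E15.5 against E13.5 by 0.19 on the log2 scale (adjusted p = 0.0266), a call lost without E13.5 library 1 (adjusted p = 0.109), E13.5 library 2 (0.074) or E15.5 library 2 (0.123), and turned to -0.39 with every library set to the same FPKM total. Uhrf1 over Dnmt1 averaged 1.71 ± 0.10, 2.58 ± 0.0025, 2.28 ± 0.24 and 1.84 ± 0.19 from E11.5 to E18.5. Of the 50-base words of Uhrf1 transcripts, 15.4% are shared with other genes, foremost Gm5648.

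Dnmt3a and Dnmt3b, the enzymes of new methylation, parted during the series. The libraries of Dnmt3a stood at 6.84 and 6.76 FPKM at E11.5, with 9.56 and 9.76 at E13.5, with 9.76 and 9.88 at E15.5 and with 8.40 and 8.79 at E18.5. Those of Dnmt3b, the form prominent in early embryos, stood at 4.11 and 4.27, 3.18 and 2.85, 2.81 and 2.49, and 1.66 and 1.46 FPKM. Dnmt3a was lowest in both E11.5 libraries, and Dnmt3b was highest there and lowest at E18.5. Dnmt3a rose at E13.5 against E11.5 (log2 0.45, SE 0.04, adjusted p = 8.13e-05) and fell slightly at E18.5 against E15.5 (log2 -0.17, adjusted p = 0.00771), a call lost with every library set to the same FPKM total (log2 -0.015, adjusted p = 0.762), while at E15.5 against E13.5 the log2 difference was 0.02 (adjusted p = 0.674). Dnmt3b fell at E13.5 against E11.5 (log2 -0.37, adjusted p = 0.00496) and at E18.5 against E15.5 (log2 -0.51, adjusted p = 0.00116), and over the whole span it was 2.69-fold lower at E18.5 (log2 -1.02, adjusted p = 2.78e-05), below the 5 FPKM that the rule of size asks. Within a library, Dnmt3a over Dnmt3b was 1.66 and 1.58 at E11.5, with 3.01 and 3.42 at E13.5, with 3.47 and 3.96 at E15.5 and with 5.05 and 6.04 at E18.5, lowest in both E11.5 libraries and highest in both E18.5 libraries. Of the 50-base words of Dnmt3b transcripts, 9.81% are shared with other genes, foremost its germline copy Dnmt3c.

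Tet1, a dioxygenase that oxidizes methylated cytosine, was the least abundant member at E11.5, E13.5 and E18.5. Its libraries stood at 1.01 and 1.16 FPKM at E11.5, with 1.19 and 1.42 at E13.5, with 1.61 and 1.58 at E15.5 and with 1.003 and 1.154 at E18.5, from 199 to 370 reads each. Both E15.5 libraries were above all others, and E18.5 and E11.5 overlapped. It fell at E18.5 against E15.5 (log2 -0.32, SE 0.08, adjusted p = 0.0117), a call lost without E18.5 library 1 (adjusted p = 0.0599) and with every library set to the same FPKM total (log2 -0.20, adjusted p = 0.0696). The differences at E13.5 against E11.5 (log2 0.14) and at E15.5 against E13.5 (log2 0.17) were not called.

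Counted over the members, E18.5 against E15.5 had the most falls under median-of-ratios scaling, but not with every library set to the same FPKM total. Under the first, 8 of the 10 members fell there, 1 rose (Ezh1) and 1 was not called (Bmi1), where limma called 30% of all genes tested as fallen and 38.3% as risen. The median log2 difference was -0.49 over the members and 0.04 over all genes, and 3 members were lower by the rule of size (Suz12, Dnmt1 and Uhrf1), which 5.55% of all genes were, while none was higher (6.29% of all genes). With the same FPKM total, 2 members rose (Ezh1 and Bmi1) and 6 fell there, fewer falls than at E15.5 against E13.5 (8), E18.5 against E11.5 (9) or E18.5 against E13.5 (9). No share of all genes called is given for that scaling. Under it the median of all genes was 0.15 at E18.5 against E15.5, and -0.41, -0.46 and -0.24 in those other comparisons. The counts under that scaling therefore carry a shift of all genes and say little about the members alone. At E13.5 against E11.5, 3 members rose and 3 fell, beside 30.9% and 37.2% of all genes, and the medians were 0.02 and -0.03. Ezh2 alone was past the rule of size there, as lower (5.73% of all genes lower and 5.77% higher). At E15.5 against E13.5, 2 members rose and 1 fell, beside 28.5% and 27% of all genes, with none past the rule of size (3.64% of all genes higher and 1.48% lower). With every library set to the same FPKM total, 1 member rose and 8 fell there.

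Set against E13.5 and E11.5 under median-of-ratios scaling, E18.5 had like medians over the members, but fewer members fell than against E15.5. At E18.5 against E13.5, 7 members fell and 1 rose (24% and 36% of all genes), 2 were lower by the rule of size (Ezh2 and Uhrf1, beside 3% of all genes) and none higher (5.34%), and the median log2 difference was -0.44 over the members and 0.06 over all genes. At E18.5 against E11.5, 5 members fell and 2 rose (38% and 36.9% of all genes), 1 was lower by the rule of size (Ezh2, beside 7.55% of all genes) and none higher (10.4%), and the medians were -0.42 and 0.00. With the same FPKM total, none rose and 9 fell over that span. In either direction limma called 68.2% of all genes between E13.5 and E11.5, 55.6% between E15.5 and E13.5, 68.3% between E18.5 and E15.5, 74.9% between E18.5 and E11.5 and 60.1% between E18.5 and E13.5, so the number of members called says little, and the size of the differences carries the description.

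**Figure D3:**
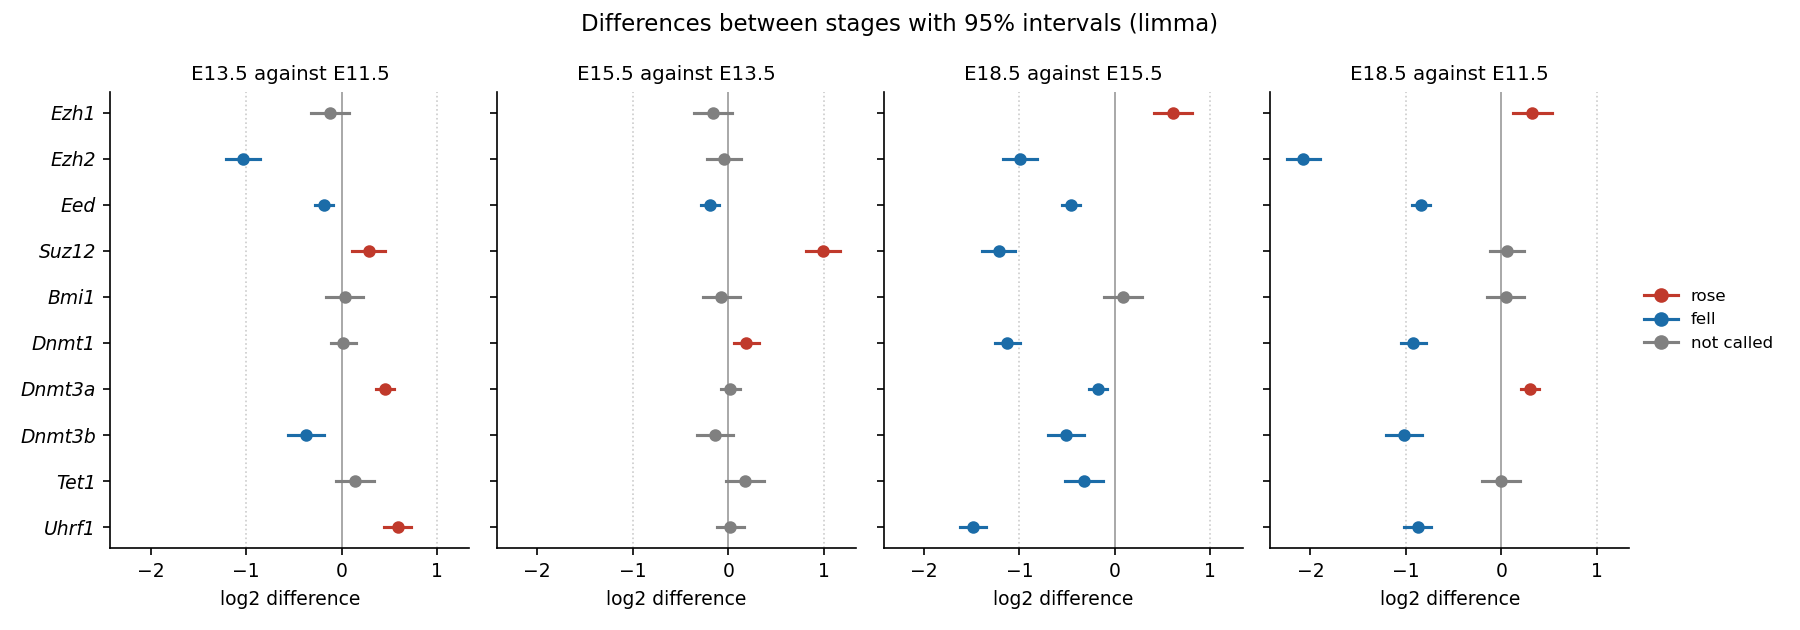
Log2 difference of log2(scaled FPKM + 1) for each member (rows), later stage minus earlier stage, in 4 comparisons, with points for limma's estimate and bars for its 95% interval. Dotted lines mark 2-fold. At E18.5 against E15.5, 8 members fell and Ezh1 rose by 0.61, and at E15.5 against E13.5 Suz12 stood alone near 2-fold (0.99).

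The 4 members with an E2F word in a promoter window were also the 4 with the steepest falls at E18.5 against E15.5, with log2 differences of -0.996 for Ezh2, -1.22 for Suz12, -1.13 for Dnmt1 and -1.48 for Uhrf1. The other 6 members lay between -0.51 (Dnmt3b) and 0.61 (Ezh1). The match did not hold at E18.5 against E13.5 or E11.5, where Suz12 stood at -0.23 and 0.06. Eed (-0.655 and -0.84) and Dnmt3b (-0.65 and -1.02), without an E2F word, fell more than Suz12 there. This match was seen after the values were known, it rests on 4 genes with different numbers of windows, and it was not tested.

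Genes of the cell cycle fell at E18.5 as well. S phase genes had a geometric mean level of 19.6, 22.8, 18.6 and 9.29 FPKM from E11.5 to E18.5 (26 of the 31 genes listed had library values), and mitosis genes 30.7, 29.1, 30.6 and 11.7 FPKM (12 of 18). At E18.5 against E15.5, 26 of 26 S phase genes and 12 of 12 mitosis genes tested fell, with median log2 differences of -0.91 over the 30 measured S phase genes and -1.26 over the 18 mitosis genes. Among them, Rrm2, a subunit of ribonucleotide reductase, was at 39.7 FPKM at E18.5 and 121 at E15.5, and Ccne1, cyclin E1, fell to 6.76 ± 0.29 FPKM at E18.5, against 20.1 ± 0.62 at E15.5 (SD, n = 2 libraries each). The part of these genes' fall in that of the members was not tested.

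Set against the S phase genes within each library, the members divided. Ezh2 over the S phase mean was 1.88 and 1.89 at E11.5, with 0.736 and 0.803 at E13.5, with 0.969 and 0.860 at E15.5 and with 0.833 and 0.893 at E18.5, so that E18.5 overlapped E15.5, both E11.5 libraries stood above all others and both E13.5 libraries below. Dnmt1 over the same mean averaged 0.6002 ± 0.037, 0.522 ± 0.0037, 0.736 ± 0.039 and 0.616 ± 0.0026 from E11.5 to E18.5. Uhrf1 averaged 1.03 ± 0.0027, 1.35 ± 0.0084, 1.68 ± 0.085 and 1.13 ± 0.11. The direction depended on the set of genes. Over the mitosis genes, Ezh2 averaged 0.688 ± 0.0075 at E18.5 and 0.555 ± 0.051 at E15.5, and Dnmt1 0.491 ± 0.021 and 0.446 ± 0.020, both higher at E18.5. Uhrf1 over the mitosis genes was lower at E18.5, at 0.901 ± 0.055 and 1.02 ± 0.060. Members that fell less than the S phase genes, or did not fall, must stand higher against them at E18.5. Eed (2.11 ± 0.037 at E18.5 and 1.47 ± 0.0496 at E15.5), Tet1 (0.116 ± 0.014 and 0.0858 ± 0.00056), Bmi1, Dnmt3a and Ezh1 were above every earlier library there, with Bmi1 at 1.21 ± 0.061 at E18.5 and 0.570 ± 0.070 at E15.5, Dnmt3a at 0.926 ± 0.053 and 0.529 ± 0.0068, and Ezh1 at 0.273 ± 0.00021 and 0.0712 ± 0.0050 (SD, n = 2 libraries each). Suz12 at E15.5 was 0.818 ± 0.045 of the S phase mean, against 0.313 ± 0.0059 at E13.5, so the mean of those genes did not share its rise. Single genes differed: 3 of 26 S phase genes rose and 15 fell at E15.5 against E13.5 (0 and 25 with the same FPKM total). Of 12 mitosis genes, 4 rose and 4 fell (1 and 11), with the largest rise for Mki67 (log2 1.24).

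**Figure D4:**
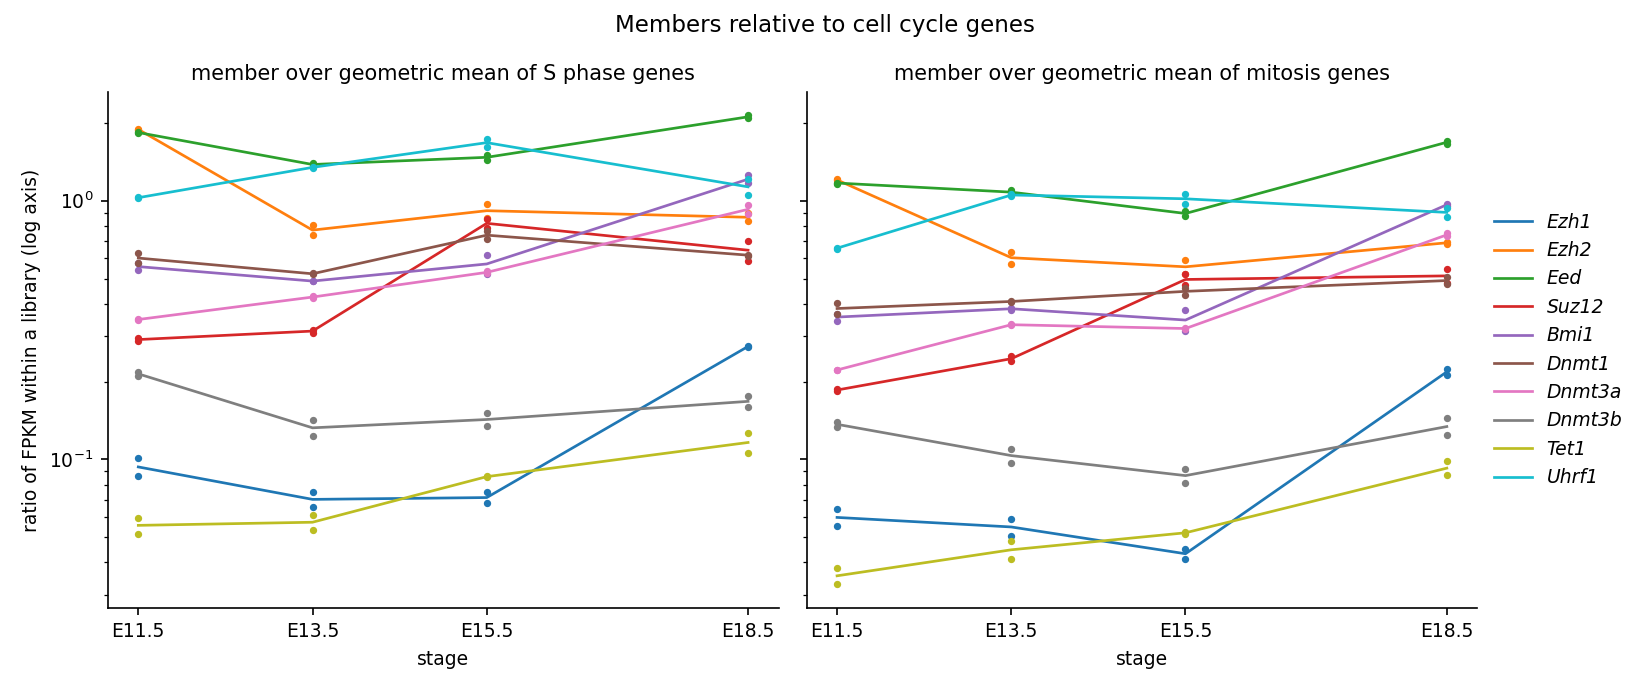
Ratio of each member's FPKM to the geometric mean of S phase genes (left) and of mitosis genes (right) within a library, on a log axis, with 1 point per library and a line through the stage means. Ezh2 over S phase genes was 1.88 and 1.89 at E11.5 and 0.736 to 0.969 in the later 6 libraries, and Ezh1, Eed, Bmi1, Dnmt3a and Tet1 were highest against both sets at E18.5.

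Other subunits of PRC2 varied in the same range. Of 8 listed, 4 had library values, of which 2 rose and 2 fell over the whole span, E18.5 against E11.5 (1 and 2 with every library set to the same FPKM total). Of all genes, 36.9% rose and 38% fell over that span, so counts among 4 genes say little. Mtf2, which brings PRC2 to CpG islands, was at 38.6 ± 0.89, 19.6 ± 0.68, 15.46 ± 0.95 and 12.3 ± 0.95 FPKM from E11.5 to E18.5 (E18.5 against E11.5, log2 -1.58, adjusted p = 1.65e-06). Epop, another PRC2 partner, was at 16.7, 8.69, 9.04 and 4.46 FPKM, and Phf1 at 3.75, 2.64, 2.35 and 6.46 FPKM, both without library values and so without a test. The histone chaperones Rbbp7 (178 to 286 FPKM) and Rbbp4 (16.5 to 38.4 FPKM) were the most abundant of the list.

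In PRC1, the chromobox subunits Cbx2 and Cbx6 moved in opposite directions. Cbx2 had libraries averaging 12.4 ± 0.45, 6.33 ± 0.22, 2.59 ± 0.24 and 2.50 ± 0.11 FPKM from E11.5 to E18.5, and Cbx6 averaged 2.06 ± 0.20, 7.39 ± 0.56, 10.3 ± 0.41 and 14.6 ± 0.17 FPKM. At E18.5 against E11.5 Cbx2 fell (log2 -1.93, adjusted p = 6.86e-07), while Cbx6 rose (log2 2.35, adjusted p = 4.34e-07). Over the 19 other PRC1 genes tested, 7 rose and 10 fell in that comparison (4 and 13 with the same FPKM total). At E18.5 against E15.5, 8 rose and 4 fell (10 and 3). Of all genes, 36.9% rose and 38% fell at E18.5 against E11.5, and 38.3% and 30% at E18.5 against E15.5. Beside those shares the counts say little. Yaf2 (29.8 to 84.4 FPKM) and Pcgf6 (19.3 to 31.4 FPKM) were the most abundant of the list.

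Enzymes that remove Polycomb marks, and the H3K4 methyltransferases that oppose them, were measured beside the writers. None of 7 measured removers of the H3K27 and H2A marks passed the rule of size in any of the 5 comparisons, with Bap1 at 8.81 to 19.9 FPKM and Usp16 at 5.57 to 9.06 FPKM. Only 1.48% to 10.4% of all genes passed that rule in a given direction and comparison, so none among 7 says little. Of 10 genes of the H3K4 methyltransferase complexes tested, 7 rose and 2 fell at E15.5 against E13.5, which became 3 and 3 with the same FPKM total. At E18.5 against E15.5, 1 rose and 8 fell (2 and 7). Of all genes, 28.5% rose and 27% fell at E15.5 against E13.5, and 38.3% and 30% at E18.5 against E15.5. Dpy30, a shared subunit of the H3K4 methyltransferase complexes, fell to 84.0 ± 2.40 FPKM at E18.5, against 171 ± 0.29 at E15.5 (log2 -1.02, adjusted p = 7.43e-05). Men1, menin, was at 17.6 to 23.1 FPKM.

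Of 10 other DNA methylation genes, 8 were measured and 7 tested. Hells, a helicase needed for full DNA methylation, was lowest at E18.5, as Dnmt1 and Uhrf1 were. It was at 7.01 ± 0.056, 10.3 ± 0.23, 9.23 ± 0.075 and 3.07 ± 0.34 FPKM from E11.5 to E18.5 (E18.5 against E15.5, log2 -1.33, adjusted p = 7.1e-06). Like Uhrf1 and unlike Dnmt1, Hells rose at E13.5 against E11.5 (limma log2 0.50, adjusted p = 0.000426). Gadd45b, a stress-induced gene also tied to demethylation, rose most, to 98.8 ± 3.50 FPKM at E18.5, against 11.1 ± 0.65 at E11.5 (log2 3.04, adjusted p = 3.23e-07). Its relative Gadd45a was at 39.97 to 71.0 FPKM, and Mat2a, which makes the methyl donor, at 35.8 to 71.6 FPKM. None of the 8 methyl-CpG binding genes passed the rule of size in the 5 comparisons, with Mbd3 at 145 to 275 FPKM and Mbd2 at 27.5 to 50.8 FPKM. That too says little, since 1.48% to 10.4% of all genes passed the rule in a given direction and comparison.

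Among textbook targets of both systems, germline genes were low and Cdkn2b rose at E18.5. The part of either system in these levels was not tested. None of 14 germline genes that DNA methylation silences in somatic cells reached 1 FPKM at any stage. Only 14841 of the 54532 gene IDs did, so none among 14 says little. The highest of the 14 germline genes were Tdrd1, at 0.0608, 0.705, 0.401 and 0.0287 FPKM from E11.5 to E18.5, and Sycp3, at 0.0882 to 0.248 FPKM. At the Ink4 and Arf locus, a classic target of Polycomb, Cdkn2a was at 0 FPKM up to E15.5 and at 0.0334 FPKM at E18.5. Cdkn2b, the neighbouring inhibitor of cyclin D kinases, rose to 5.79 ± 0.85 FPKM at E18.5, against 1.197 ± 0.598 at E15.5 (log2 1.65, SE 0.26, adjusted p = 0.00152; SD, n = 2 libraries each).

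The genes whose course over the 4 stages was most like a member's were taken from 2960 genes with a mean of 5 FPKM or more and a span of at least 1 on the log2 scale. The measure was the root-mean-square difference of log2 values centred over the stages, a description over 4 samples. For Ezh2 they were Tubb5 (0.045), Cenpe (0.071) and Ptn (0.078), and for Uhrf1 Ran (0.025), Ncl (0.035) and Gmnn (0.076). For Suz12 they were Cmc2 (0.048), Polr2j (0.055) and Ahcy (0.062), and for Dnmt1 Exosc8 (0.045), Ruvbl2 (0.046) and U2af1 (0.053). For Dnmt3b they were Tdp1 (0.033), Eif1ad (0.036) and Zmynd19 (0.040), and for Eed Zmynd19 (0.066), Hat1 (0.089) and Sf3a3 (0.093). Eed (0.84), Ezh1 (0.61), Dnmt3a (0.47), Tet1 (0.32) and Bmi1 (0.08) spanned less than the 1 asked of these genes, which sets a least distance for them, and no nearest genes are given for the last 4.

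The scaling between stages set the direction of some small differences. With every library set to the same FPKM total, which includes the acinar and endocrine transcripts that grew with age, the median of all genes moved to -0.41 at E15.5 against E13.5 and to -0.46 over the whole span, E18.5 against E11.5. At E18.5 against E11.5 Dnmt3a stood at -0.22 and Ezh1 at -0.08 under that scaling, against calls of 0.30 and 0.32 above, and Suz12 and Bmi1 stood at -0.45 and -0.50. The falls of Ezh2, Eed, Dnmt1, Dnmt3b and Uhrf1 at E18.5 against each earlier stage, the rise of Suz12 at E15.5 against E13.5 and the rise of Ezh1 at E18.5 against E15.5 were called under it as well.

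**Figure D5:**
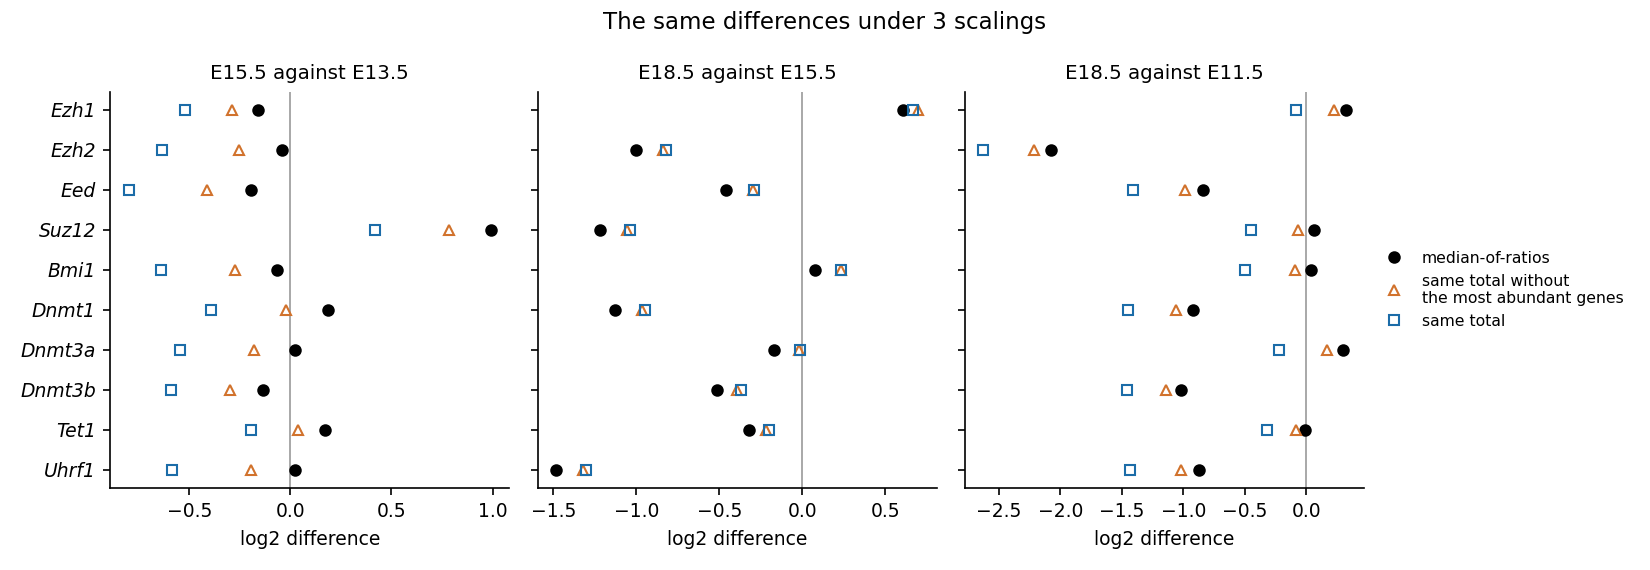
Log2 difference of each member (rows), later stage minus earlier stage, in 3 comparisons under median-of-ratios scaling (filled circles), the same FPKM total (squares) and the same total without the most abundant genes (triangles). At E18.5 against E11.5 Ezh2 lay between -2.63 and -2.07 under all 3, and Dnmt3a lay on both sides of 0 (-0.22 and 0.30).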

How the data were processed

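The authors deposited, per the file headers, an average FPKM per Ensembl gene for each of 4 samples. Per the submitters' processing notes, reads were handled with HISAT2 2.0.5 and the mm10 build; no source used here names the counting tool, its strand setting or the gene annotation. GENCODE M21, on the same build, supplied symbols, coordinates and lengths of exons, and named 54495 of 54532 IDs.

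The deposited FPKM multiplied by exon length was treated as a sum of whole reads of 2 libraries per stage. The FPKM denominator of each library was estimated, and a mean was split where a unique pair of read numbers matched it to within 0.85 of the last digit place and no more than 0.05 matching pairs would arise by chance. Of the values attempted, 96.3% to 96.5% were split. The estimated reads were 0.898 to 1.26 times the denominators, so these were not plain read totals. No label states this recovery, and the check used simulated means of the same form.

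Samples were scaled by median-of-ratios factors over 9884 genes at 1 FPKM or more in all stages (0.988, 1.03, 1.03 and 0.962 from E11.5 to E18.5). Of the 14841 genes at 1 FPKM or more in a stage, the 13090 with values split in all 8 libraries were compared on log2(scaled FPKM + 1) with limma 3.58.1 (R 4.3.3; trend in the variance; Benjamini-Hochberg, 0.05) in 1 fit of all libraries and 5 comparisons. The script was tested on simulated data.

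The members and the lists were chosen with earlier results of these data known. Genes of a list are named where they passed the rule of size at E18.5 against E11.5 or E13.5, up to 4 a list, or were the 2 most abundant; of the cell cycle lists only 2 such genes are described. A result of the PRC1 list that this rule names is not reported here. Dpy30 and Hells at E18.5 against E15.5 fall under this rule as genes, and that comparison was picked after its values were seen. Promoter windows came from RefSeq (GRCm38.p6), 250 bases before to 50 after the start, and all 10 members matched. Comparisons of protein sequence were not made. Alternatives were other pseudocounts, scalings, minimum levels and folds, and leaving out each library.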

Additional observations from a re-analysis of the deposited data

How the results depend on the processing

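By the rule of size, the members lower at E13.5 against E11.5 (1, Ezh2) became 0 with a pseudocount of 5 or with FPKM as deposited, and the 0 higher at E15.5 against E13.5 became 1 (Suz12) with a pseudocount of 0.1 or at 1.5-fold. The 3 lower at E18.5 against E15.5 became 1 with a pseudocount of 5, 2 with either FPKM total and 4 with a pseudocount of 0.1, with FPKM as deposited or at 1.5-fold. The 1 lower at E18.5 against E11.5 became 2 with a pseudocount of 0.1, with a minimum of 1 FPKM or with none, 3 with the same FPKM total without the most abundant genes, 4 at 1.5-fold and 5 with the same FPKM total. The 2 lower at E18.5 against E13.5 became 1 with a pseudocount of 5 and 4 at 1.5-fold or with the same FPKM total. With limma, asking for 2-fold as well left 0 members rising in all 5 comparisons, and 1, 0, 3, 2 and 2 falling at E13.5 against E11.5, E15.5 against E13.5, E18.5 against E15.5, E18.5 against E11.5 and E18.5 against E13.5. With every library set to the same FPKM total, E13.5 against E11.5 had 2 rises and 4 falls, E15.5 against E13.5 had 1 and 8, E18.5 against E15.5 had 2 and 6, and E18.5 against E11.5 and against E13.5 had 0 and 9 each. That scaling turned the sign of Bmi1 (-0.097) and Dnmt1 (-0.11) at E13.5 against E11.5, of Dnmt1 (-0.39), Dnmt3a (-0.54), Uhrf1 (-0.58) and Tet1 (-0.19) at E15.5 against E13.5, of Ezh1 (-0.08), Suz12 (-0.45), Bmi1 (-0.50) and Dnmt3a (-0.22) at E18.5 against E11.5, and of Bmi1 (-0.40) at E18.5 against E13.5. The turned values of Bmi1 and Dnmt1 at E13.5 against E11.5, of Tet1 and of Ezh1 were not called. The scaling itself moved the median of all genes, as given above. With no filter on low values 1 member rose at E15.5 against E13.5. Leaving out 1 library at a time gave 1 to 2 rises and 1 to 2 falls at E15.5 against E13.5, 1 to 2 rises and 7 to 8 falls at E18.5 against E15.5, 1 to 2 rises at E18.5 against E11.5 and 5 to 7 falls at E18.5 against E13.5. The libraries that decided a call and are not named above were, for Ezh1 at E18.5 against E11.5, E11.5 library 2 (adjusted p = 0.0692 without it) and E18.5 library 1 (0.0519), and for Dnmt3a at E18.5 against E13.5, E13.5 library 2 (0.0767) and E18.5 library 1 (0.073). Suz12 at E18.5 against E13.5 lost its call without any of 5 libraries (adjusted p = 0.0636 to 0.155) and with no filter on low values (0.0707). Where an arm keeps 1 library, that library is assumed to vary like the others. No paired analysis was possible because the labels give 1 sample per stage and the recovered libraries carry no number shared between stages. Depth limits Ezh1, Dnmt3b and Tet1 most, with 95 to 390 reads per library.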
